A study of Mus musculus with 20 samples.

Results

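The irradiation response of Gfi1 KO thymocytes was taken as the difference between 3 arrays of irradiated and 2 arrays of untreated thymocytes labelled Gfi1 KO, which are 5 of the 20 arrays of the series. The arrays were chosen by their titles, and the difference was computed for every gene from the probe sets that name 1 gene. The series measured expression in mouse thymocytes and in thymic tumours, to compare cells with and without Gfi1 after irradiation and in tumours. All groups used here were thymocytes of C57BL/6 mice: KO untreated (2 arrays), KO irradiated (3), WT untreated (2) and WT irradiated (3), where WT is the group labelled wt. Not given in the sources used here are the radiation dose, the time between irradiation and harvest, the age of the mice and which Gfi1 allele the thymocyte KO mice carried. The labels describe a floxed Gfi1 gene and the inducible Mx1-Cre recombinase only for the tumour mice. Nothing states that the arrays of a group came from separate mice, so the p-values may measure technical spread alone.

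The table holds 182058 probe sets, of which 167016 name 1 gene, and 12747 of the 19607 genes named were tested, those that exceeded the 40th percentile of signal on 2 or more thymocyte arrays. Values were read as log2 signal, and a fold holds only if the base is 2. Responses are given as the log2 difference, irradiated minus untreated, ± its standard error (SE) from 1 limma fit over the 10 thymocyte arrays. A gene was called at an adjusted p under 0.05 (Benjamini-Hochberg over all genes tested), and rose and fell are used of called genes alone. Counts within a gene list are over the members that passed the filter.

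Thymocytes are the developing T cells of the thymus, which pass from a double-negative through a double-positive stage, with CD4 and CD8 on the surface, to mature single-positive cells. Ionizing radiation breaks their DNA, the kinase ATM signals the breaks to the transcription factor p53, and p53 induces genes of cell cycle arrest, DNA repair and cell death. Double-positive thymocytes die readily by this route. GFI1 is a DNA-binding protein with zinc fingers that silences its target genes in lymphoid and myeloid precursors, and it has been reported to restrain the output of p53 in lymphocytes.

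On the arrays 8 probe sets name Gfi1 (called 1 to 8 here, by the order of their IDs), and the 2 KO groups did not show the same pattern. Probe set 2 lay at 5.62 and 5.67 on the KO untreated arrays and at 12.72, 12.72 and 12.74 on the KO irradiated arrays, a difference of 7.09 ± 0.14 (limma adjusted p = 8.68e-10). Probe set 3 lay at 8.60 and 8.50 against 11.92, 11.92 and 11.79, a difference of 3.33 ± 0.12. Both were low on the untreated KO arrays alone, while all 5 WT arrays were high, from 11.34 to 12.07 for probe set 2 and from 10.83 to 11.41 for probe set 3. Probe set 5 went the other way, from 11.45 and 11.43 on the untreated arrays to 7.82, 8.05 and 7.79 on the irradiated arrays. The differences of probe sets 5, 6, 7 and 8 were -3.56, -2.86, -3.91 and -2.50, those of probe sets 1 and 4 (-0.39 and 0.48) were not called, and the gene summary over all 8 was -2.07 ± 0.14 in KO and -0.50 in WT. When probe sets were averaged the KO value was -0.29 and the difference from WT moved from -1.57 to 0.18, so a single value does not describe Gfi1 here. The exons behind these probe sets and the exons that an allele lacks were not analysed here. The allele of the KO mice and irradiation therefore cannot be told apart for any gene below. The array numbers in the labels ran from 77 to 80 for the untreated arrays of both genotypes and from 45 to 65 for all others. What these numbers stand for is not given, and whatever they track cannot be told apart from irradiation either.

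**Figure D1:**
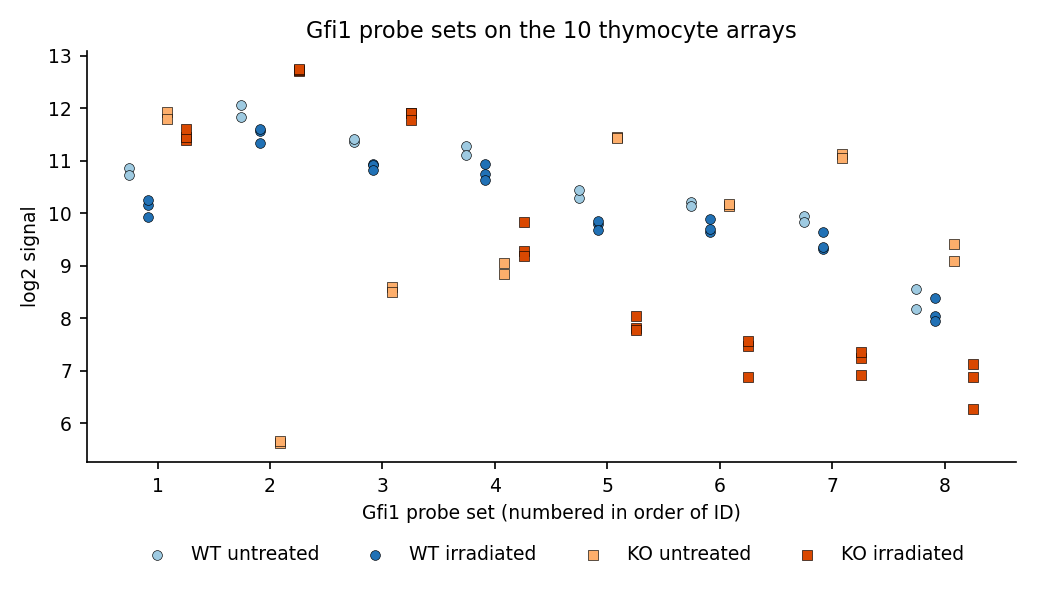
Signal (log2, vertical axis) of the 8 Gfi1 probe sets (horizontal axis) on the 10 thymocyte arrays, 1 point per array, circles for WT and squares for KO. Probe sets 2 and 3 are low on the 2 KO untreated arrays and high on the 3 KO irradiated arrays, and probe sets 5 to 8 show the reverse.

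Markers of thymocytes were high on all 5 KO arrays. Rag1, which cuts the T cell receptor genes for rearrangement, lay at 14.37 and 14.48 without and at 14.22, 14.49 and 14.45 with irradiation. Cd8a, the CD8 co-receptor, lay between 13.42 and 13.57 on all 5, and neither Rag1 (-0.04 ± 0.11) nor Cd8a (-0.08 ± 0.09) was called. The co-receptor Cd4 was lower after irradiation by 0.33 ± 0.10 (limma adjusted p = 0.0148), a call that was lost without any one of KO irradiated 1, KO untreated 1 or KO untreated 2. Lck was not analysed here. Of the 16 thymocyte markers tested, 10 fell and 1 rose, with a median of -0.31, and 6 fell when KO untreated 2 was left out. Over all genes tested, 15.1% rose and 23.7% fell, and the median was -0.02. In bulk samples fewer cells of a type and less RNA per cell cannot be told apart.

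Irradiation went with a broad change in KO thymocytes: 1925 genes rose and 3021 fell, 38.8% of those tested, and 111 rose and 286 fell by over 2-fold. The arrays of the 2 groups did not overlap for 66.2% of genes (30.1% higher and 36.1% lower after irradiation). Without KO untreated 1 the counts were 842 and 1836, and without KO untreated 2 they were 1010 and 1865. A fit that took in the 10 tumour arrays called 285 rises and 487 falls, and the lists below that were recounted in it kept between 0 and 11 calls each. In WT 1651 genes rose and 2762 fell (34.6% of those tested). The WT response shares no array with the KO response, but both use the same estimate of the spread. Genes called higher in both numbered 945, which is 49.1% of the KO rises and 57.2% of the WT rises. Genes called lower in both numbered 2016, or 66.7% of the KO falls and 73.0% of the WT falls. The difference between the 2 responses was called for 240 genes (1.88%), 140 with the higher response in KO (1.1%) and 100 with the lower (0.784%). That count was 61 without KO untreated 1, 92 without KO untreated 2, 88 without WT untreated 1, 89 without WT untreated 2 and 6 with all 20 arrays.

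**Figure D2:**
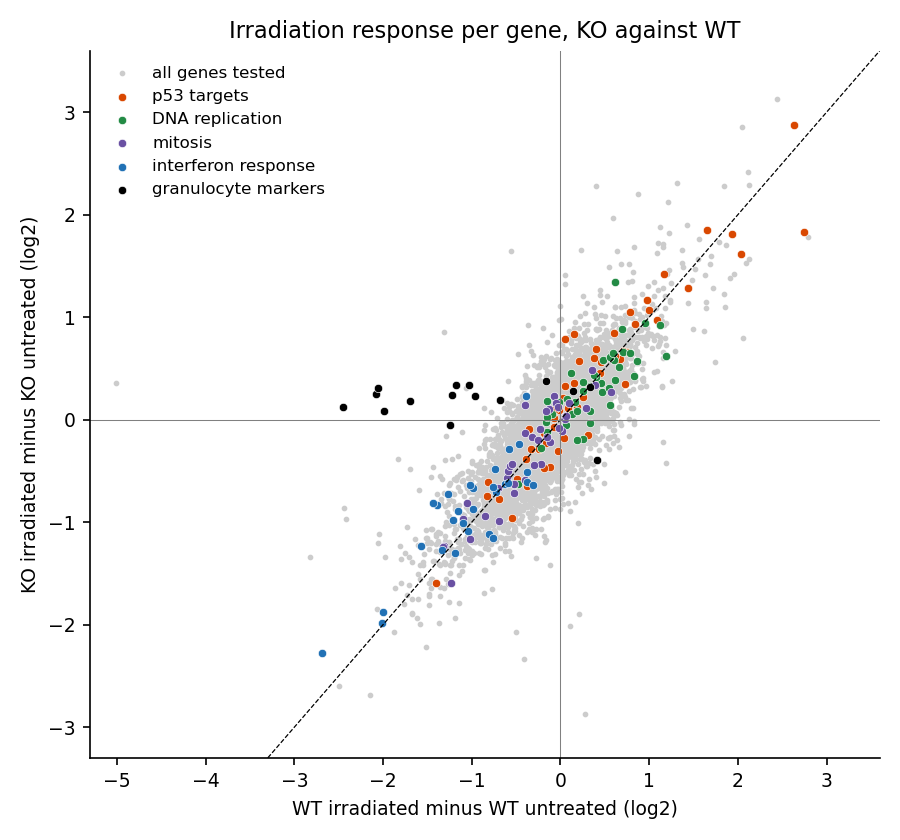
Each point is a gene, with its irradiation response in WT on the horizontal axis and in KO on the vertical axis (both log2 differences). Most listed p53 targets, replication, mitosis and interferon genes lie along the dashed line of equal response. Most granulocyte markers lie to its left, near 0 in KO and down to -2.45 in WT. Of these 15 markers, 7 passed the filter only through the WT untreated arrays, where they are high, so the place of this list is not read.

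Among targets of p53 that halt the cell cycle or feed back on p53, 10 of 18 rose and 3 fell, with a median of 0.34, where 15.1% of all genes tested rose. Cdkn1a encodes p21, the inhibitor of cyclin-dependent kinases through which p53 stops the cycle. It lay at 8.77 and 8.51 on the KO untreated arrays and at 10.61, 10.23 and 10.59 on the irradiated arrays. The 2 groups did not overlap, as was the case for 66.2% of all genes tested. The rise was 1.83 ± 0.13 (limma adjusted p = 2.91e-08) in KO and 2.74 ± 0.13 in WT, and it was smaller in KO by 0.91 ± 0.18 on the log2 scale (limma adjusted p = 0.0125). That difference was lost without KO untreated 1 or WT untreated 1. Plk2, a kinase that p53 induces, went from 6.98 on both untreated arrays to 8.87, 8.76 and 8.75, a rise of 1.81 ± 0.14 against 1.94 in WT. Ccng1, an atypical cyclin and a classical p53 target, was already abundant at 12.23 and 12.31 and rose to 13.30, 13.42 and 13.31 (1.07 ± 0.10). Gtse1, a microtubule protein that feeds back on p53, rose by 1.28 ± 0.11. Its 3 irradiated arrays (10.39 to 10.52) lay above both untreated ones (9.20 and 9.16), which 30.1% of all genes shared.

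Mdm2, the ubiquitin ligase that degrades p53, rose less: 10.92 and 11.08 against 11.54, 11.70 and 11.55, a difference of 0.60 ± 0.11. Its 10 called probe sets of 12 were all higher. Ptprv, a phosphatase required for p53-dependent arrest, rose in KO from 8.52 and 8.53 to 9.30, 9.34 and 9.44 (0.83 ± 0.11). It was not called in WT (0.15 ± 0.11), and the responses differed by 0.68 ± 0.15 (limma adjusted p = 0.0235), a call lost without any one of the 4 untreated arrays or KO irradiated 3. Trp53inp1, a cofactor of p53 in the death response, stood near 12.9 on all 5 KO arrays (0.01 ± 0.10, not called). Ccnd2, a cyclin that drives entry into the cycle, was in the list too and fell by 1.59 ± 0.10, from 12.11 and 11.91 to 10.37, 10.42 and 10.46.

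Of 15 p53 targets of the death pathways 9 rose and 3 fell, with a median of 0.60, where 15.1% and 23.7% of all genes rose and fell, and 1 fell without KO untreated 2. Phlda3, which blocks the survival kinase AKT at the membrane, had the largest rise of them, from 8.12 and 8.05 to 11.01, 10.63 and 11.27 (2.88 ± 0.14, limma adjusted p = 4.33e-10). Bbc3 encodes PUMA, the BH3-only protein on which radiation death of thymocytes largely depends. It went from 8.75 and 8.76 to 10.18, 9.90 and 10.45, a rise of 1.42 ± 0.16 in KO and 1.17 in WT. Pmaip1, which encodes the BH3-only protein NOXA, rose by 0.84 ± 0.15, with untreated arrays at 8.23 and 8.48 and irradiated arrays at 9.30, 9.35 and 8.95. The death receptor Tnfrsf10b (1.05 ± 0.10), the PIDD gene under its older symbol Lrdd (1.16 ± 0.10), the nuclease Aen (0.66 ± 0.10) and the caspase activator Apaf1 (0.67 ± 0.12) rose as well. Fas, another death receptor, lay lower on the irradiated arrays by 0.29 ± 0.10 (limma adjusted p = 0.0361), and that call was lost without any one of KO irradiated 1, KO irradiated 3, KO untreated 1 or KO untreated 2. Bax was not analysed here.

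**Figure D3:**
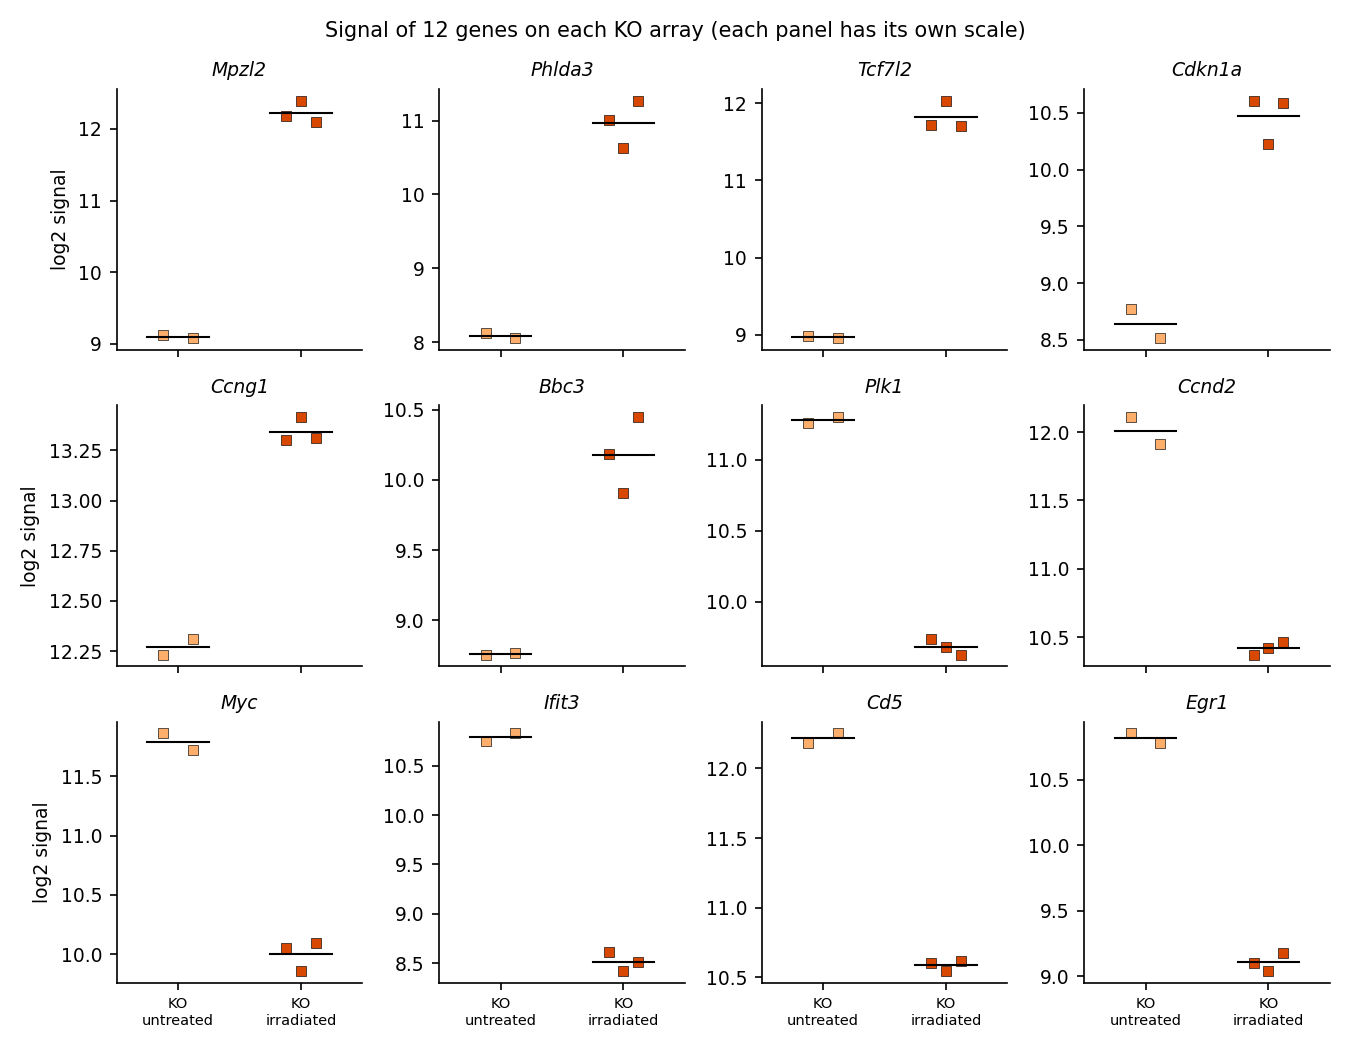
Signal (log2) of 12 genes on the 2 KO untreated and 3 KO irradiated arrays, 1 point per array, with a line at each mean and a separate scale for each gene. In every panel the 2 groups of arrays do not overlap, which holds for 66.2% of all genes tested. The first 6 panels rise and the last 6 fall.

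Among p53 targets in DNA repair and metabolism 10 of 23 rose and 6 fell, where 15.1% of all genes rose and 23.7% fell. Their median, 0.21, was not above 0 in every setting. Slc19a2, a thiamine transporter, rose from 7.88 and 7.90 to 9.61, 9.89 and 9.73 (1.85 ± 0.11). Sesn2, a stress sensor that restrains the growth kinase mTORC1, rose by 1.61 ± 0.13. All 3 irradiated arrays (9.84 to 10.04) lay above both untreated ones (8.29 and 8.34), as for 30.1% of all genes. Polk, a DNA polymerase that copies past lesions, rose by 0.93 ± 0.11. Ddb2, which finds ultraviolet lesions for excision repair, went from 9.65 and 9.54 to 10.33, 10.37 and 10.44 in KO (0.79 ± 0.10) but stood at 0.06 ± 0.10 in WT, where it was not called. This difference of 0.73 ± 0.14 was itself called (limma adjusted p = 0.00899) and was lost without any one of WT untreated 1, KO untreated 1 or KO untreated 2. The epoxide hydrolase Ephx1 fell by 0.77 on the log2 scale.

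Promoter sequences from RefSeq (GRCm38.p6) reach from 250 bases before to 50 bases after each start and were found for 45 of the p53 targets tested. They were searched on both strands for the p53 response element, a pair of consensus decamers with at most 1 base between them and at most 1 mismatch in all. Such a match is in 58 of 32851 promoters (0.177%). It was found in 4 of 23 target genes that rose and 0 of 22 others, which says only what these windows hold. Those 4 are shown in windows of 100 bases, because they are the promoters in which the rise and the element meet. Capitals mark the element, and in Gtse1 they cover 2 overlapping matches.
Cdkn1a: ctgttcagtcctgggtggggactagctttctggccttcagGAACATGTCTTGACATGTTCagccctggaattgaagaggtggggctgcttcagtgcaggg
Ccng1: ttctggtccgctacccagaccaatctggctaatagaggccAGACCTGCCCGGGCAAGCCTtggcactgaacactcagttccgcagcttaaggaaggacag
Gtse1: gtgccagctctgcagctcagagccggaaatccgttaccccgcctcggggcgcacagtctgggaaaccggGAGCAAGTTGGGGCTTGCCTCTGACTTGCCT
Polk: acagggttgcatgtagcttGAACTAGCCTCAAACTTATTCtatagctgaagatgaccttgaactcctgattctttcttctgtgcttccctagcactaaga
The windows are chr17:29090888-29090987 (plus strand, Cdkn1a, upstream of the first of its 2 starts in the table), chr11:40755422-40755521 (minus strand, Ccng1), chr15:85859876-85859975 (plus strand, Gtse1) and chr13:96519338-96519437 (minus strand, Polk).

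The 20 largest rises reached beyond these lists. Mpzl2, an adhesion protein of epithelia and of the thymus, had the largest: 9.12 and 9.08 on the untreated arrays against 12.18, 12.39 and 12.10, a rise of 3.13 ± 0.12 (limma adjusted p = 5.29e-11). It was called on all 7 of its probe sets, and its rise exceeded that in WT (2.44) by 0.69 (limma adjusted p = 0.0386), a call that was lost when any one of 7 arrays was left out, all 4 untreated ones included. Tcf7l2, a transcription factor of the WNT pathway, rose from 8.98 and 8.95 to 11.73, 12.03 and 11.70 on all 21 probe sets (2.85 ± 0.13), against 2.05 in WT (adjusted p of the difference in limma, 0.0236). That difference was lost without any one of the 4 untreated arrays, WT irradiated 1 or WT irradiated 2. Dgat1, which makes triglycerides, rose on all 17 probe sets by 2.28 ± 0.10, and the DNA glycosylase Neil1 on all 15 by 1.90 ± 0.11. Cecr2, part of a chromatin remodelling complex, rose by 2.42 ± 0.11, and the nucleotide sugar receptor P2ry14 by 2.29 ± 0.11.

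All of these 20 genes rose in WT too, and for 10 of them the size differed between genotypes. Dmbt1, a secreted scavenger receptor protein, went from 6.80 and 6.76 to 8.81, 9.15 and 8.98 in KO (2.20 ± 0.11) and rose by 0.88 ± 0.11 in WT (a difference of 1.32). Gch1, the first enzyme of tetrahydrobiopterin synthesis, rose by 2.12 ± 0.12 in KO and 1.21 in WT. Fgfr1, a fibroblast growth factor receptor, rose by 1.88 ± 0.10 and 1.12. Both calls of a difference ended when KO untreated 2 or WT untreated 2 was left out. Tceal1 rose by 2.31 ± 0.11 in KO and 1.31 in WT. Dmbt1 and Tceal1 passed the filter only through the KO irradiated arrays, where they are high, so their larger response in KO had to follow. Of these 10 differences, those of Cdkn1a and of Mt2 were smaller responses in KO. Mt2 is a metallothionein that binds zinc and copper. Mt2 was high before irradiation in KO (11.47 and 10.84, against 9.11 and 8.76 in WT) and rose by 1.78 ± 0.17 in KO and 2.79 in WT, a difference lost without any one of 8 arrays. Ctla4, an inhibitory receptor of T cells, rose by 1.77 ± 0.12, and Cables1, a cyclin-dependent kinase adaptor, by 1.73 ± 0.16.

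Of 12 genes of the BCL-2 family that promote death 3 rose and 3 fell, where 15.1% and 23.7% of all genes did. Bbc3 and Pmaip1 rose as above, and Bcl2l11, which encodes BIM, the BH3-only protein of negative selection, went from 11.01 and 10.97 to 11.79, 11.97 and 11.84 (0.87 ± 0.11). Bmf (-0.98 ± 0.11), Bid (-0.74 ± 0.12) and Bak1 (-0.63 ± 0.14) fell. Of the 3 protectors tested, Bcl2 was lower by 0.33 ± 0.10 and Mcl1 by 0.32 ± 0.11, and both calls were lost without KO irradiated 1 or either KO untreated array, that of Mcl1 also without KO irradiated 3. Bcl2l1, which encodes BCL-XL, was not called (-0.15 ± 0.11). Among caspases and their regulators 3 of 16 rose and 6 fell, and 3 fell without either KO untreated array. Casp2, which PIDD activates, rose by 0.63 ± 0.10, while the caspase inhibitors Xiap (-0.97 ± 0.15) and Cflar (-0.69 ± 0.11) fell. Their 2 groups of arrays did not overlap, which holds for 66.2% of all genes tested.

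Of 42 genes of DNA replication and the G1 to S transition 21 rose and 1 fell, with a median of 0.32, against a background of 15.1% and -0.02. Orc1l, the older symbol of the largest subunit of the origin recognition complex, went from 8.21 and 8.29 to 9.48, 9.60 and 9.69 (1.34 ± 0.13). Pole, the polymerase of the leading strand, rose by 0.92 ± 0.11, on 34 of 44 probe sets, and the transcription factor E2f1 by 0.94 ± 0.11. Mcm5, a subunit of the replicative helicase, went from 10.71 and 10.75 to 11.37, 11.38 and 11.40 (0.65 ± 0.10), and the sliding clamp Pcna rose by the same 0.65 ± 0.10. Without KO untreated 1 the count of rises was 13, and with all 20 arrays in the fit it was 0. Cyclin E2 (Ccne2) rose by 0.89 ± 0.14.

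Of 39 mitosis genes 18 fell and 2 rose, with a median of -0.20, and 0 rose without KO untreated 1 and 1 without KO untreated 2 or KO irradiated 2 or 3. Plk1, the kinase that drives entry into mitosis, went from 11.26 and 11.30 to 9.74, 9.68 and 9.63, a fall of 1.60 ± 0.11 on the log2 scale (limma adjusted p = 4.09e-08). Aurka, a kinase of the spindle poles, fell from 9.96 and 9.94 to 8.73, 8.65 and 8.79. Cdc25c, the phosphatase that switches on the mitotic kinase (-1.25 ± 0.12), the kinetochore protein Cenpf (-1.16 ± 0.12), the spindle assembly factor Tpx2 (-0.99 ± 0.11) and Cdc20, an activator of the anaphase-promoting complex (-0.94 ± 0.12), fell with them. Of all genes tested 23.7% fell and 15.1% rose in KO. In WT 20 of the 39 mitosis genes fell and 4 rose, where 21.7% and 13% of all genes did. A difference between genotypes was called for 0 of the 39 and for 1.88% of all genes, a share so low that the 0 is not read.

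Core histone and linker histone genes, whose transcripts are made in S phase, fell in 12 of 26 cases and rose in 1. Of all genes tested 23.7% fell and 15.1% rose. The median of the histone genes was -0.40 and moved to -0.22 without KO irradiated 2. Leaving out 1 KO array, from 8 (KO untreated 1) to 18 (KO irradiated 1) fell. Hist1h2ac went from 9.92 and 9.90 to 7.01, 7.36 and 7.29 (-2.69 ± 0.12), and Hist1h1e, a linker histone, from 12.76 and 12.60 to 11.48, 11.13 and 11.51 (-1.31 ± 0.12). Histone genes are near-identical copies, and probe sets may read several of them. All 3 D cyclins fell. Ccnd3 went from 12.58 and 12.47 to 11.27, 11.25 and 11.46 (-1.19 ± 0.10), and Ccnd1 fell by 0.75 on the log2 scale beside Ccnd2. The inhibitor Cdkn1b rose by 0.58 ± 0.12.

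Promoters of these genes were searched for a letter string known from promoters of each list. The E2F string TTTCCCGC or TTTGGCGC, on either strand, is in 1.56% of all promoters, in 8 of 17 replication genes that rose and in 3 of 16 others. The CHR string TTTGAA is in 17.9% of all promoters, in 11 of 14 mitosis genes that fell and in 12 of 18 others. Counted by gene, the 2 strings are in 1.8% and 20.2% of all genes. Matches to the E2F string therefore occurred in replication genes that rose and in others, and matches to the CHR string in mitosis genes that fell and in others. One replication gene and 2 mitosis genes that moved are shown as examples, with the string in capitals.
Mcm5: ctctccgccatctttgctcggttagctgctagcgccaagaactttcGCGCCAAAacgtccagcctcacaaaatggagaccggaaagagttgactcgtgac
Cdc20: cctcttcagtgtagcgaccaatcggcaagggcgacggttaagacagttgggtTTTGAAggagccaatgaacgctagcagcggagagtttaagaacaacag
Cenpf: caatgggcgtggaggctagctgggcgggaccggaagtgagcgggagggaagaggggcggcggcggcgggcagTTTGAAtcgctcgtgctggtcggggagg
They lie at chr8:75109314-75109413 (plus strand, Mcm5, where the string reads on the other strand), chr4:118437314-118437413 (minus strand, Cdc20) and chr1:189688057-189688156 (minus strand, Cenpf).

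Among genes of growth, Myc, the transcription factor that drives growth and ribosome synthesis, went from 11.86 and 11.73 to 10.05, 9.86 and 10.09 (-1.79 ± 0.11, and -1.76 in WT). Of 26 genes of ribosome biogenesis and MYC targets, a list that holds Myc, 12 fell and 1 rose, among the falls Nop58 (-0.88 ± 0.13), Nop16 (-0.85 ± 0.11), the telomerase and snoRNA protein Dkc1 (-0.81 ± 0.13) and the methyltransferase Fbl (-0.70 ± 0.12). Of 56 ribosomal protein genes 30 fell and 0 rose, with a median of -0.39. The snoRNA Snord118, which takes part in ribosomal RNA processing, lay at 11.74 and 11.45 before and at 10.22, 8.42 and 8.34 after irradiation, so 1 irradiated array stood between the others. Oxidative phosphorylation genes fell in 12 of 30 cases (Ndufb5, -0.90 ± 0.12), glycolysis genes in 7 of 16 (the hexokinase Hk1, -0.84 ± 0.10), and 0 of either list rose. With all 20 arrays in the fit 1 of each of these 2 lists fell. Of all genes tested in the main fit 23.7% fell and 15.1% rose. Heat shock genes fell in 6 of 10 cases. Of these, Hsph1 fell by 0.87 in KO and stood at 0.00 in WT (limma adjusted p of the difference = 0.00406, lost without KO untreated 1).

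Of 41 DNA repair and checkpoint genes 13 rose, where 15.1% of all genes did, and 9 fell, a share near the 23.7% of all genes. When either KO untreated array was left out 4 fell, and with all 20 arrays in the fit 1 rose and 0 fell. The rises included Brca1 (8.11 and 8.06 against 9.10, 9.36 and 9.20), its partner Bard1 (0.92 ± 0.12), the checkpoint mediator Clspn (0.84 ± 0.10), the end-resection factor Rbbp8 (0.73 ± 0.11) and the helicase Blm (0.70 ± 0.11). Brca1 was called on 18 of 19 probe sets and rose by 1.13 ± 0.11 in KO and 1.03 in WT. For 0 of the 41 was the difference between genotypes called, which is not read because it was called for only 1.88% of all genes.

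Interferon response genes held the largest share of calls among all lists described. Of 29 genes tested 27 fell and 0 rose (93.1%, where 23.7% of all genes fell), with a median of -0.82, and the other two, named here after their values were seen, were Irf9 and Gbp2. In WT 28 of the 29 fell, where 21.7% of all genes did. The mean of the 29 genes lay at 9.94 on both KO untreated arrays and between 9.03 and 9.07 on the 3 irradiated arrays. Ifit3, an antiviral protein that interferon induces, went from 10.75 and 10.83 to 8.61, 8.42 and 8.51 (-2.28 ± 0.10, limma adjusted p = 2.75e-10). Ifit1, which binds foreign RNA, went from 10.32 and 10.25 to 8.32, 8.11 and 8.46 (-1.99 ± 0.11). Usp18, which removes ISG15 and damps the receptor, fell on all 10 probe sets, from 10.40 and 10.56 to 8.72, 8.37 and 8.73. Bst2, which tethers virus particles (-1.30 ± 0.12), the helicase-like Ddx60 (-1.27 ± 0.12) and the chaperone Rtp4 (-1.24 ± 0.12) fell as well, and the differences from WT were not called for any of these 6. With all 20 arrays in the fit 11 of the 29 fell.

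The promoters of 23 of these genes were searched for the interferon-stimulated response element in a short form, GAAA, any 2 bases and GAAA again, on either strand, a search added after the fall had been seen. The string is in 3.44% of all promoters and in 15 of the 23 genes, of which 14 are among the 21 that fell. Ifit3, Ifit1 and Ddx60 are shown because each holds 2 copies within 100 bases, in capitals.
Ifit3: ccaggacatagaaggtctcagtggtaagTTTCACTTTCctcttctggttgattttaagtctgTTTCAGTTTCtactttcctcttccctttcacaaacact
Ifit1: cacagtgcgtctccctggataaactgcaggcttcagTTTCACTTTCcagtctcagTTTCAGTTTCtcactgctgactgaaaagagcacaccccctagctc
Ddx60: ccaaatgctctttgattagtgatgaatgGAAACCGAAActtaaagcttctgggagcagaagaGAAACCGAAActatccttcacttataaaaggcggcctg
Their windows are chr19:34583345-34583444, chr19:34640749-34640848 and chr8:61928006-61928105, all on the plus strand, and in the first pair the string reads on the other strand.

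**Figure D4:**
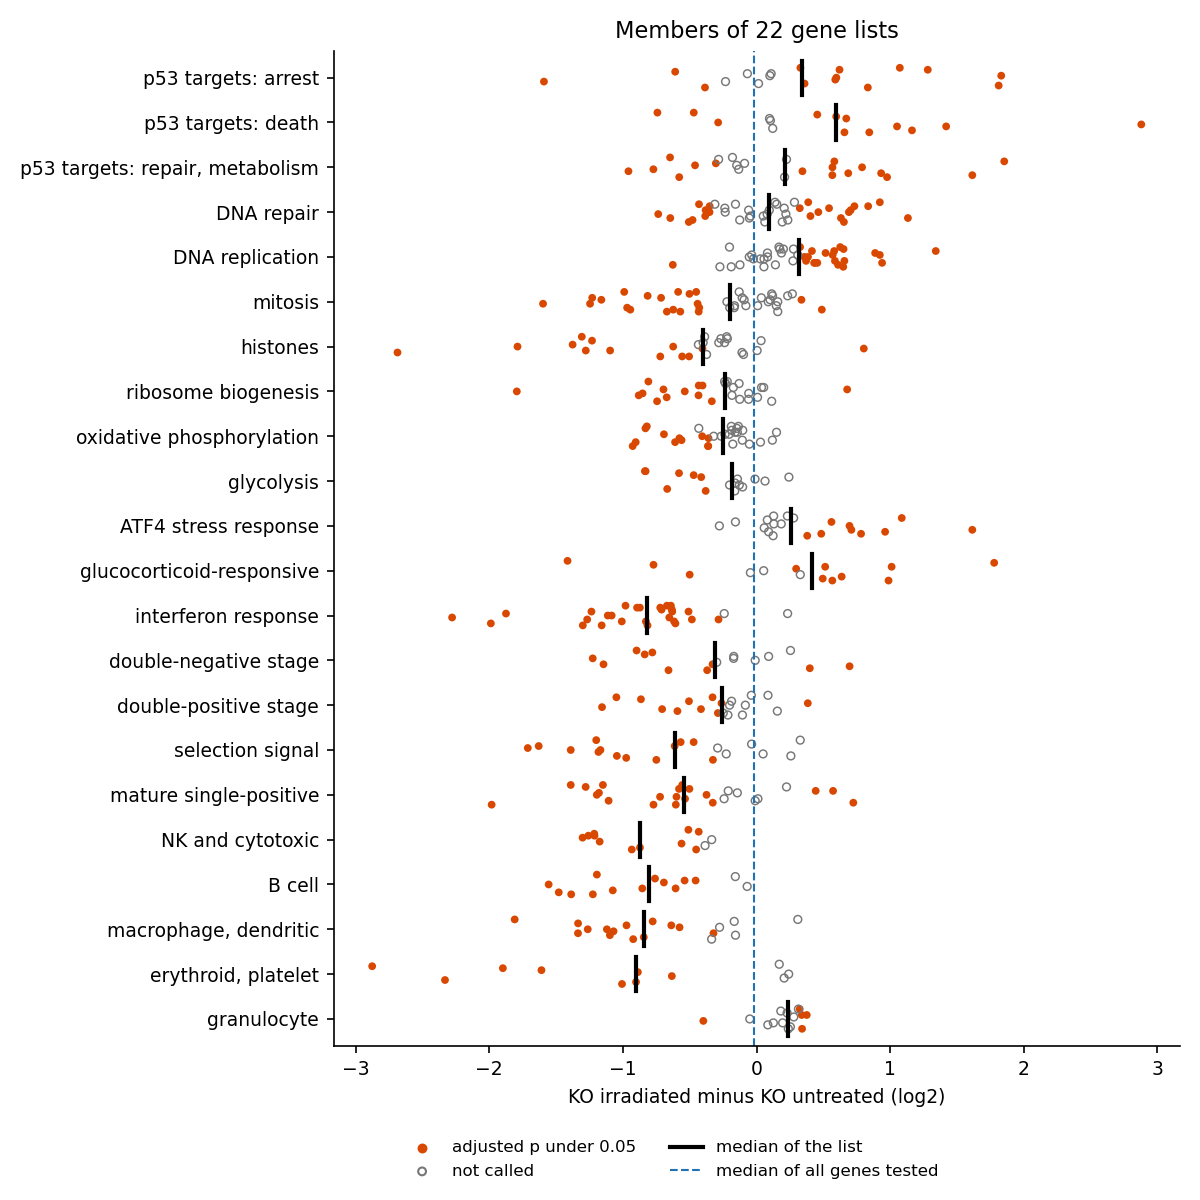
Log2 difference, KO irradiated minus KO untreated, of every tested member of 22 gene lists, filled where the adjusted p was under 0.05. Black bars mark list medians and the dashed line the median of all genes (-0.02). Medians run from -0.90 (erythroid and platelet) to 0.60 (p53 targets of death).

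Genes of T cell development fell more often than they rose, as did all genes tested (23.7% fell and 15.1% rose). Of 19 genes that a selecting T cell receptor signal induces, 13 fell and 0 rose (median -0.61). Cd5, a receptor whose level tracks that signal, went from 12.18 and 12.25 to 10.60, 10.55 and 10.61, and Egr1, an early transcription factor below the receptor, from 10.86 and 10.78 to 9.10, 9.04 and 9.18. Cd69, which keeps thymocytes in the thymus, had responses of -1.20 ± 0.11 in KO and -2.06 in WT (limma adjusted p of the difference = 0.00901), and Egr2 had responses of -1.05 and -1.73 (0.0167). Leaving out KO untreated 1 or WT untreated 1 ended the first of these calls, and the second was lost without any one of the 4 untreated arrays. Gata3, needed for the CD4 lineage, fell by 1.17 ± 0.10, and Zbtb7b, which fixes that lineage, by 1.39 ± 0.12. In receptor signalling itself 13 of 24 genes fell and 3 rose. The phosphatase Ptpn6 went from 11.11 and 11.23 to 9.99, 9.71 and 9.94, and the exchange factor Vav1 fell by 0.97 ± 0.10. The transcription factors Nfatc1 and Nfatc2 fell in KO (-0.61 ± 0.10 and -0.67 ± 0.11) and not in WT, where Nfatc2 rose by 0.34 ± 0.11. Their responses differed with limma adjusted p = 0.00623 and 0.00229, the first of which did not hold once KO untreated 1 or WT untreated 2 was left out.

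Of 26 genes of mature single-positive cells 17 fell and 3 rose (median -0.55), where 23.7% of all genes fell and 15.1% rose. Ccr4, a chemokine receptor of maturing cells, went from 10.47 and 10.53 to 8.45, 8.50 and 8.60 (-1.98 ± 0.11). The integrin chains Itgae (-1.28 ± 0.11) and Itgb7 (-1.20 ± 0.11) and the surface receptor Cd6 (-1.11 ± 0.11) fell. Of 20 double-positive genes 10 fell and 1 rose, and 6 fell without KO untreated 1. They included Dntt, the polymerase that adds junctional bases (-0.87 ± 0.12), St6gal1 (-1.05 ± 0.11) and Satb1 (-0.59 ± 0.11). Of 16 double-negative genes 8 fell and 2 rose, and 1 of the 16 passed the filter only through the KO untreated arrays. Ptcra, the pre-T-cell receptor chain, went from 9.77 and 9.84 to 8.64, 8.30 and 8.79. Il2ra, the interleukin 2 receptor alpha chain, fell by 0.78 ± 0.10 in KO but not in WT (-0.07 ± 0.10, limma adjusted p of the difference = 0.0124), a difference lost without any one of the 4 untreated arrays. Il7r, the interleukin 7 receptor, was not called (-0.01 ± 0.11). Among 17 Notch targets 8 fell and 3 rose, with Dtx1 at -1.15 ± 0.10 and Hey1 at 1.23 ± 0.14.

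Most tested markers of NK cells, B cells and macrophages or dendritic cells, which thymus preparations can hold, also fell. Of 19 NK and cytotoxic markers 13 were tested, and all 13 had negative differences. Of these 11 fell (median -0.87), where 23.7% of all genes did, and 1 of the 13 passed the filter only through the KO untreated arrays, where it is high. The mean of the list went from between 9.67 and 9.71 to between 8.70 and 9.01. Gzma, a granzyme, went from 10.53 and 10.45 to 9.17, 9.21 and 9.20. Perforin (Prf1) fell by 1.17 ± 0.12 in KO and was not called in WT (-0.16 ± 0.12, limma adjusted p of the difference = 0.00406). Of 14 B cell markers tested, of 17 listed, 12 fell, with 0 called once the tumours were in the fit, and their mean went from between 9.42 and 9.44 to between 8.49 and 8.62. Faim3 (-1.56 ± 0.10), Fcer2a (-1.48 ± 0.12) and the CD20 gene Ms4a1 (-1.23 ± 0.12) were among them.

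Of 19 macrophage and dendritic markers tested, of 27 listed, 14 fell and 0 rose, and the list mean went from between 9.93 and 9.95 to between 8.99 and 9.27. Of the 19, 2 passed the filter only through the KO untreated arrays, where they are high, so lower values after irradiation had to follow for these 2. Cd209a, a dendritic lectin, went from 9.51 and 9.49 to 7.93, 7.50 and 7.63. Lyz2, lysozyme of macrophages and granulocytes, had responses of -1.34 ± 0.14 in KO and -2.82 ± 0.14 in WT (limma adjusted p of the difference = 0.000453), and the MHC class II chain H2-Aa of -1.34 and -1.98 (0.0422). The difference for H2-Aa was lost without any one of 8 arrays. Emr1, the gene of the F4/80 antigen, did not pass the filter on low values. Of 10 gamma delta T cell markers tested, of 16 listed, 6 fell, with a median of -0.32. Of the 10, 2 passed the filter only through the KO untreated arrays, where they are high, so the count of falls is not read. With KO untreated 1 or KO untreated 2 left out, 8 were tested, and the medians were -0.22 and -0.23. Il23r went from 7.94 and 8.17 to 6.47, 6.74 and 6.90. It passed the filter only through the 2 KO untreated arrays, where it is high, so neither its fall nor its difference from WT is read here. Of 15 stromal markers tested, of 25 listed, 3 rose and 4 fell, shares near the 15.1% and 23.7% of all genes. Without KO untreated 1 it was 0 and 2, and without KO untreated 2 it was 0 and 3. Epcam, an epithelial adhesion molecule, fell by 0.98 ± 0.14. The part of any of these cells in the falls of other genes was not tested.

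Of 20 erythroid and platelet markers listed 11 passed the filter, and several were high in KO before irradiation and low after it. Hbb-y, an embryonic beta globin, lay at 9.80 and 9.17 on the KO untreated arrays, at 6.59, 6.66 and 6.58 on the KO irradiated arrays and between 6.40 and 6.99 on all 5 WT arrays. Its response in KO, -2.88 ± 0.15, differed from that in WT (0.27 ± 0.15) by -3.15 ± 0.22 (limma adjusted p = 3.70e-07). Hbb-b1, an adult beta globin of a family of near-identical genes, went from 12.76 and 12.48 to 10.45, 9.68 and 10.74 in KO and lay between 7.70 and 8.67 in WT. Its difference from WT was lost in a fit with trended, robust moderation. Ppbp, a platelet chemokine, went from 9.52 and 9.43 to 7.34, 7.62 and 7.76. Alb, the albumin of liver, went from 9.11 and 8.32 to 6.63, 6.71 and 6.77. All of these irradiated arrays lay below the untreated ones of the same gene, which holds for 36.1% of all genes. The WT arrays of Ppbp and Alb lay between 6.48 and 6.92. Alas2, the erythroid enzyme of haem synthesis, fell by 1.01 ± 0.11. Of the 11 tested 8 fell, where 23.7% of all genes did, with a median of -0.90. With KO untreated 1 or KO untreated 2 left out, 8 were tested, and the medians were -0.59 and -0.93. Of the 11, 3 passed the filter only through the KO untreated arrays. For Hbb-y, Ppbp and Alb leaving out either KO untreated array took the gene below the filter. They were tested only because of the arrays on which they are high, so their differences support nothing about the list.

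Granulocyte genes were low on the KO arrays before irradiation. On the KO arrays S100a8, a calcium-binding protein of neutrophils, stood at 5.91 and 6.05 before and at 6.09, 6.02 and 6.21 after irradiation, below the median of every array over genes. In WT it lay at 9.64 and 9.45 and fell to 7.22, 7.10 and 6.97. Its responses, 0.13 ± 0.11 and -2.45 ± 0.11, differed by 2.57 ± 0.16 (limma adjusted p = 6.63e-08). S100a9, Mmp8 and Lcn2 had responses of 0.31, 0.25 and 0.08 in KO, not called, and of -2.06, -2.08 and -1.98 in WT, where they fell. Over the 15 of 22 granulocyte markers tested, the list mean lay between 6.94 and 7.21 on all 5 KO arrays, and between 8.87 and 9.01 on the untreated and 7.86 and 7.90 on the irradiated WT arrays. With the KO arrays alone 3 of the 15 passed the filter, and 7 passed it only through the WT untreated arrays. A difference from WT had to follow for those 7, so neither their calls nor counts over the list are read here. S100a8, S100a9 and Mmp8 passed through the 2 WT untreated arrays and no other.

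Of 26 immediate early genes 10 rose and 9 fell, where 38.8% of all genes were called, and 1 of the 26 passed the filter only through the KO irradiated arrays. The AP-1 member Fosl2 went from 9.55 and 9.34 to 11.19, 11.05 and 11.22 and the orphan nuclear receptor Nr4a2 from 8.47 and 8.41 to 10.08, 9.93 and 9.88. Dusp1, which dephosphorylates MAP kinases, rose by 1.01 ± 0.10, and its relative Dusp2 fell by 1.41 ± 0.14. Jun, the partner of FOS in AP-1, was high in KO before irradiation (10.93 and 10.76, against 8.90 and 8.72 in WT) and stood at 10.47, 10.10 and 10.70 after it. It rose in WT by 1.19 ± 0.15, and the responses differed by -1.61 ± 0.21 (limma adjusted p = 0.000406), while its fall of 0.42 on the log2 scale in KO was lost without KO irradiated 2 or either KO untreated array.

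Of 12 genes of inflammation tested 5 rose and 3 fell, where 15.1% of all genes rose and 23.7% fell. Of the 12, 3 passed the filter only through the KO irradiated arrays, where they are high, so the count of rises is not read. With KO irradiated 1 or KO irradiated 3 left out, 10 were tested and 3 rose. The neutrophil chemokine Cxcl2 went from 5.93 and 5.97 to 8.43, 7.84 and 8.43 in KO (2.28 ± 0.15) and rose by 0.40 ± 0.15 in WT, and the chemokine Ccl3 from 8.44 and 8.37 to 10.64, 10.12 and 10.37 (1.97 ± 0.14) and by 0.60 ± 0.14 in WT. Both differences between genotypes were called (limma adjusted p = 0.00012 and 0.000884). Cxcl2 passed the filter only through KO irradiated 1 and 3, on which it is high, so its difference supports nothing about the list. The same holds for Ptgs2, which passed only through the 3 KO irradiated arrays. Ptgs2, the inducible cyclooxygenase, rose by 1.34 ± 0.11, and Cxcl9, a chemokine that interferon gamma induces, fell by 1.07 ± 0.12. Among 15 NF-kB genes 6 rose and 3 fell, with Nfkb2 (0.78 ± 0.11), the feedback inhibitor Tnfaip3 (0.76 ± 0.11) and Rel (0.64 ± 0.11) higher and Traf1 (-0.75 ± 0.11) lower. Of the 15, 1 passed the filter only through the KO irradiated arrays.

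Genes of the ATF4 stress response rose in 9 of 20 cases and fell in 0, where 15.1% of all genes rose and 23.7% fell. Slc7a5, an amino acid transporter, went from 11.02 on both untreated arrays to 12.01, 12.16 and 12.16, and Chac1, which breaks down glutathione, from 8.12 and 8.17 to 9.17, 9.01 and 9.14. Sesn2, described above, is in this list too. Of 14 metallothionein and glucocorticoid-responsive genes 8 rose and 3 fell, and 0 were called with all 20 arrays in the fit. Tsc22d3, which encodes GILZ, rose by 0.99 ± 0.12, while Gpr83 fell by 1.41 ± 0.11 and Sgk1 by 0.77 ± 0.10. Of the apoptotic cell uptake, NRF2 and cholesterol genes that follow, 21.4%, 22.2% and 36.8% were called, against 38.8% of all genes. Of 14 genes of apoptotic cell uptake 1 rose and 2 fell, and of 9 NRF2 targets 2 fell, 4 without KO irradiated 1 and 1 without any other single KO array. Of 19 cholesterol synthesis genes 1 rose and 6 fell, and 2 fell without KO untreated 1 and 3 without KO untreated 2.

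Genes described as targets of GFI1 in blood cells fell in 11 of 22 cases and rose in 4, with a median of -0.25. The falls include Gfi1 itself, which a single value does not describe here. Of the 22, 1 passed the filter only through the KO untreated arrays. With KO untreated 1 or KO untreated 2 left out, 21 were tested, and the medians were -0.20 and -0.18. Over all genes tested 23.7% fell and 15.1% rose. The list holds Gfi1 itself, Egr1, Egr2 and Cdkn1a, given above, and Sfpi1, the older symbol of the PU.1 gene (-1.19 ± 0.13). Id2, an inhibitor of E proteins that GFI1 represses, stood at 10.61 and 10.57 before and 10.54, 10.25 and 10.47 after irradiation in KO. It was not called there (-0.16 ± 0.13) but fell in WT from 10.50 and 10.47 to 9.01, 9.45 and 9.11, and the responses differed by 1.13 ± 0.18 (limma adjusted p = 0.00234). Gfi1b, the related repressor, was not called (-0.17 ± 0.10).

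The largest difference between the responses was that of Slc15a2, a transporter of small peptides. It lay at 10.03 and 10.13 on the KO untreated arrays and at 10.36, 10.71 and 10.24 on the KO irradiated arrays, and in WT it went from 10.92 and 10.89 to 6.05, 5.92 and 5.71. The 3 irradiated WT arrays stood alone, and the responses differed by 5.36 ± 0.19 (limma adjusted p = 2.14e-11). The rise in KO, 0.35 ± 0.13, was lost without any one of KO irradiated 2, KO untreated 1 or KO untreated 2. The light chain genes Igk and Igl-V2, made by B cells, rose in KO by 1.64 ± 0.21 and 0.85 ± 0.17, against -0.55 and -1.31 in WT. Igk went from 7.96 ± 0.06 (mean and SD of 2 arrays) to 9.59, 9.30 and 9.92 in KO, while 12 of the 14 B cell markers fell on the same arrays. Spib, an ETS factor, was not called in KO (-0.22 ± 0.13) and rose by 1.15 ± 0.13 in WT, and Pls3, an actin bundler, stood at -1.42 ± 0.11 in KO and -0.12 ± 0.11 in WT. Pls3 passed the filter only through the 2 KO untreated arrays and Igl-V2 only with the KO irradiated arrays, on which each is high, so these differences support nothing further.

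**Figure D5:**
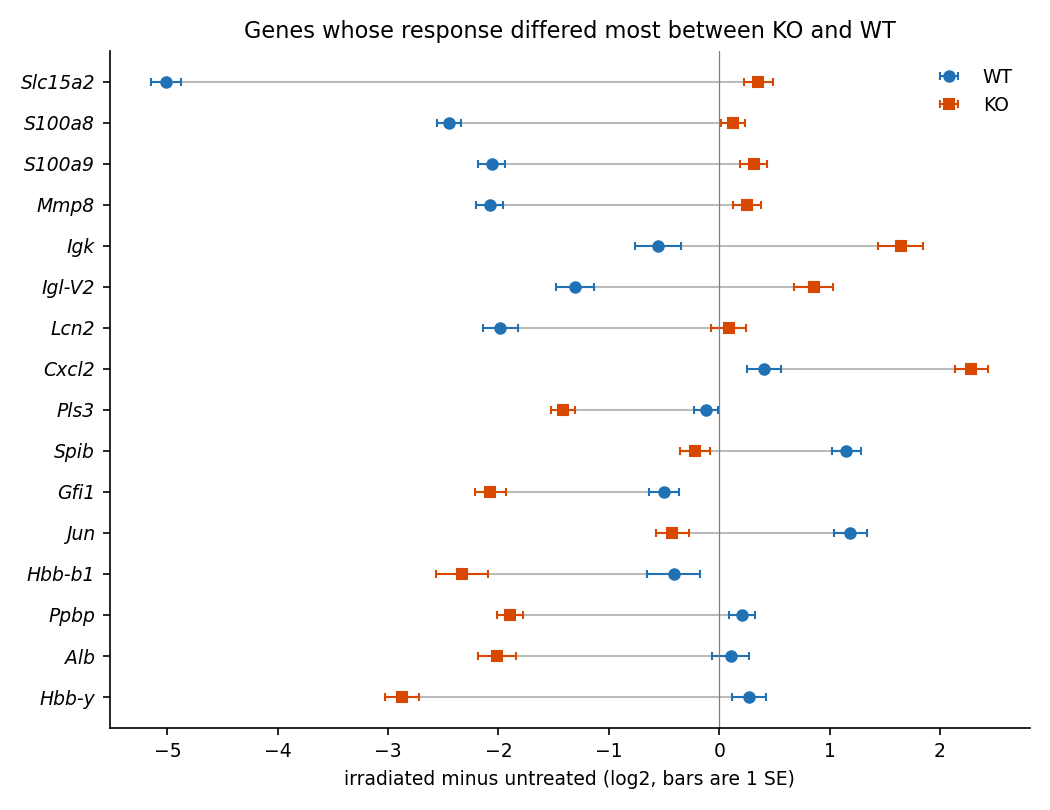
Irradiation response (log2, bars 1 SE) in KO (squares) and WT (circles) of the 8 genes with the largest called difference in each direction. For the upper 8 the KO response lies to the right of the WT response and for the lower 8 to its left, which follows from the choice of genes. Slc15a2 is farthest apart (5.36). S100a8, S100a9, Mmp8, Cxcl2, Igl-V2, Hbb-y, Alb, Ppbp and Pls3 were tested only because of the group in which they are high, so their differences support nothing further.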

How the data were processed

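The 20 arrays were taken from the deposited table of log2 signal per probe set. The base of the log is not stated and was read as 2 from the range of the values (3.37 to 15.01); for background correction, normalization and probe summary the sources used here give nothing. Array medians lay between 9.08 and 9.20 on the 10 thymocyte arrays, and the number of arrays limits the precision (median SE 0.112 for the KO response, 0.158 for its difference from WT). Probe sets were named through GEO's platform annotation, which is old; 3388 named several genes and 11654 none and were left out. Groups were taken from the array titles.

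Each probe set was centred, a gene was the median of its centred probe sets plus their mean level (median 9 probe sets per gene), and genes above the 40th percentile of an array on at least 2 arrays were fitted with limma 3.58.1 in R 4.3.3 (lmFit and eBayes, 1 mean per group, 6 residual degrees of freedom). The same fit was run on probe sets. Tables and figures used Python 3.11.15, pandas 2.3.3 and matplotlib 3.10.9. Tested on simulated data with 12747 genes, the KO contrast recovered 99 of 100 genes changed by 1 and 62 of 100 changed by 0.5 on the log2 scale, with 9 false calls. Alternatives were a further quantile normalization, centring, no filter or one at the 60th percentile, the mean of probe sets, repeated probe sets left out, all 20 arrays, only the 2 groups compared, trended and robust moderation, a replicate block and each array left out in turn. For the KO response, genes were named by rule: Gfi1, the 20 largest called rises and falls without overlap of arrays, up to 6 members of each list with the smallest p, a set of always named genes, and the 8 largest called differences from WT in each direction. Predicted genes were counted, not named. The lists and the members were chosen with earlier results of these data known, so a list's counts are no independent support. Tumour arrays entered no comparison apart from the fit of all 20.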

Additional observations from a re-analysis of the deposited data

Results flagged for a closer look

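For 41 genes or gene summaries named above, the irradiation response in KO differed from that in WT by the test of the difference itself (limma adjusted p under 0.05). Values below are the KO response minus the WT response on the log2 scale. Of the 41, 22 kept the call in every setting in which they were tested other than the fit of all 20 arrays, 12 of them tested in each, and 4 kept it in that fit too. Those 4, Hbb-y, Alb, S100a8 and S100a9, passed the filter on low values only through the untreated arrays on which they are high, as did Ppbp, Pls3, Il23r and Mmp8, so this is no sign of stability. Cxcl2, Dmbt1 and Tceal1 passed only through the KO irradiated arrays.

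Among erythroid, platelet and liver genes the difference was -3.15 for Hbb-y, -2.12 for Alb, -2.11 for Ppbp, -1.92 for Hbb-b1 and -1.20 for Alas2. In each of these the untreated KO arrays were the high ones. Among granulocyte and myeloid genes it was 2.57 for S100a8, 2.38 for S100a9, 2.33 for Mmp8, 2.07 for Lcn2, 1.48 for Lyz2 and 0.65 for H2-Aa. For the light chain genes it was 2.20 (Igk) and 2.16 (Igl-V2).

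Signalling and chemokine genes differed by 1.88 (Cxcl2), 1.37 (Ccl3), -0.72 (Cxcl9), -1.61 (Jun), 0.68 (Egr2) and 0.86 (Cd69). T cell genes differed by -1.08 (Il23r), -1.02 (Nfatc2), -0.82 (Nfatc1), -1.01 (Prf1), -0.71 (Il2ra) and -0.61 (Ccr4). The call for Ccr4 was kept in 5 of 18 settings, and lost without any one of 9 arrays, and that for Cxcl9 was kept in 7 and lost without any one of 8. Among genes that rose after irradiation in KO, the differences were -0.91 (Cdkn1a), -1.01 (Mt2), 0.68 (Ptprv), 0.69 (Mpzl2), 0.73 (Ddb2), 0.76 (Fgfr1), 0.81 (Tcf7l2), 0.91 (Gch1), 1.00 (Tceal1) and 1.32 (Dmbt1). The remaining genes were Slc15a2 (5.36), Id2 (1.13), Hsph1 (-0.87), Spib (-1.37), Pls3 (-1.29) and Gfi1 (-1.57). Groups of 2 or 3 arrays are too small for a search for single outlying arrays.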

How the results depend on the processing

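The counts depended most on which arrays entered the fit. With all 20 arrays, 285 genes rose and 487 fell in KO (282 and 486 of them called in the main fit), against 1925 and 3021; 548 were called in WT, against 4413, and 6 differed between responses, against 240. Leaving out 1 array gave 842 to 1760 rises and 1836 to 2964 falls in KO, 2111 to 5128 calls in WT and 61 to 299 differences, with the lowest counts in KO and in the difference without KO untreated 1 and in WT without WT untreated 1. The array numbers of the titles were only shared: deviations of same-numbered arrays from their group means correlated at 0.07 and 0.11 in KO and at -0.33 and -0.47 in WT. With the number as a replicate block, which leaves 2 residual degrees of freedom, 1328 rose and 2411 fell in KO, 2870 were called in WT and 196 differed. All other settings stayed within 1.5 times, from 1332 rises (filter at the 60th percentile) to 2363 (quantile normalization). Of 230 named genes called in KO, 201 kept the call in every setting other than all 20 arrays in which they were tested, 83 kept it there too, and 0 reversed. In the simulated data, where 100 genes changed, 62 of those changed by 0.5 on the log2 scale were recovered. Many more genes were called in the data themselves, so that share need not hold there. With 2 and 3 arrays a group, small changes may still have been missed.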
